A study of Mus musculus with 5 samples.

Results

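Transcripts of the 9 genes that encode ligands of the gp130 cytokine family were compared between mouse colons taken after the IL-11 receptor agonist NT-3N and Control colons, and none passed an adjusted p of 0.05. Il6 was well above background only after NT-3N, where it was at least 2.72-fold higher, and Lif only in Control, being at least 1.28-fold lower after NT-3N. Both bounds hold for the quantile-normalized processed signal. With normexp background correction the fitted log2 differences were smaller, 0.52 for Il6 and -0.18 for Lif. The agonist's own counterpart, Il11, and 5 further ligand genes were well above background in every colon, with overlapping groups. The genes were Il11, Il6, Lif, Osm, Ctf1, Clcf1, Cntf, Il27 and Ebi3. They were taken by symbol, through the accession that the array gives for each probe, and all of their probes were used, which gave 11 of the 56605 noncontrol probes on the array. Each gene entered the comparison through its brightest probe, as 9 of 17942 genes with a symbol among 32917 features.

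Whole colon of C57BL/B6 mice, 8 weeks old according to the methods of the study, was profiled on 5 Agilent SurePrint G3 arrays with 1 dye and 1 mouse per array, to find genes that respond to the agonist. There were 2 Control mice, which the study describes as untreated, and 3 mice injected intravenously with NT-3N, a modified human IL-11, whose colon was removed 3 hr later. The dose is 10 mg in the design text of the series and 10 µg in the methods of the study, so the dose is uncertain. No vehicle injection is given for the Control mice, so the injection and the agonist cannot be told apart. The probes measure mouse transcripts and not the injected protein.

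Cytokines of this family share gp130, the product of Il6st, as a signalling chain. IL-6 and IL-11 first bind a receptor chain of their own and then assemble gp130 pairs. Leukemia inhibitory factor (LIF), cardiotrophin-1 (Ctf1), cardiotrophin-like cytokine (Clcf1) and ciliary neurotrophic factor (Cntf) join gp130 with the LIF receptor, oncostatin M (Osm) joins it with Osmr, and IL-27, made of the Il27 and Ebi3 chains, joins it with the IL-27 receptor. All of these complexes activate JAK kinases and STAT3, and Socs3 is an inducible inhibitor of the pathway. In the intestine, IL-6 and IL-11 are known for their roles in epithelial repair and in tumours that follow colitis.

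All values below are on the log2 scale of the quantile-normalized processed signal. A probe is called well above background where the scanner software flagged it so. Between 70.6% and 72.9% of probes were well above background per array, no noncontrol spot was saturated, and the lowest signal so flagged lay between 3.33 and 3.70 on the 5 arrays. Every array showed 6 of the 11 ligand probes well above background, no array showed 2 of them and some arrays showed the rest. With the looser flag for positive and significant signal, 8 ligand probes passed on all 5 arrays. As a check of the tissue, 7 of 8 listed markers of colonic epithelium were well above background in every colon.

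Promoter windows of Il6 and Lif, the ligand genes whose flag for well above background differed between the groups, and of Il11, whose receptor the agonist engages, are shown with the AP-1 motif in capitals. They were taken from RefSeq for GRCm38.p6 and hold the 250 bases before the annotated start, 5′ to 3′ on the strand of the gene.
Il6, chr5:30012864-30013113, plus strand: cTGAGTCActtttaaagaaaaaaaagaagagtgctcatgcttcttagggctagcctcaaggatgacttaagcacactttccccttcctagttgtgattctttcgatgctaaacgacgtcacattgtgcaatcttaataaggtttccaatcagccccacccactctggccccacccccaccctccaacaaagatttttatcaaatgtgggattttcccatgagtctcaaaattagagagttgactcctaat
Lif, chr11:4257318-4257567, plus strand: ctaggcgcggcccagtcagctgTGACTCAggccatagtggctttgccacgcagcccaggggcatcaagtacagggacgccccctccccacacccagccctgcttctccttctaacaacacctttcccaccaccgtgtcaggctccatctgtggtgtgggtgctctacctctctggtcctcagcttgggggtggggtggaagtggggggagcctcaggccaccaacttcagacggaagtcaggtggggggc
Il11, second of its annotated starts, chr7:4778142-4778391, minus strand: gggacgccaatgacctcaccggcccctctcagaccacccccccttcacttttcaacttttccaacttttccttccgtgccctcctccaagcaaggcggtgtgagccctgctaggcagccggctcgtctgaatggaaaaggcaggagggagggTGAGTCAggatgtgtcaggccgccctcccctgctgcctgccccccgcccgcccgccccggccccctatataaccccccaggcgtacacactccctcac

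Of the 9 ligand genes, 6 had such a window, Il11 with 2 and the others with 1, and none was found for Osm, Clcf1 and Il27. Searched on both strands, the AP-1 motif TGACTCA was present in 4 of these 7 windows, those printed here and that of Cntf, against 4.46% of the 32851 windows of all genes. The STAT motif TTCNNNGAA was present in 0 of the 7 windows, against 7.02% of all windows. The letters searched for NF-kB sites left out common variants of that motif, so no count is given for it. A match is only a run of letters, and the absence of a match holds only for these letters in these windows.

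**Figure D1:**
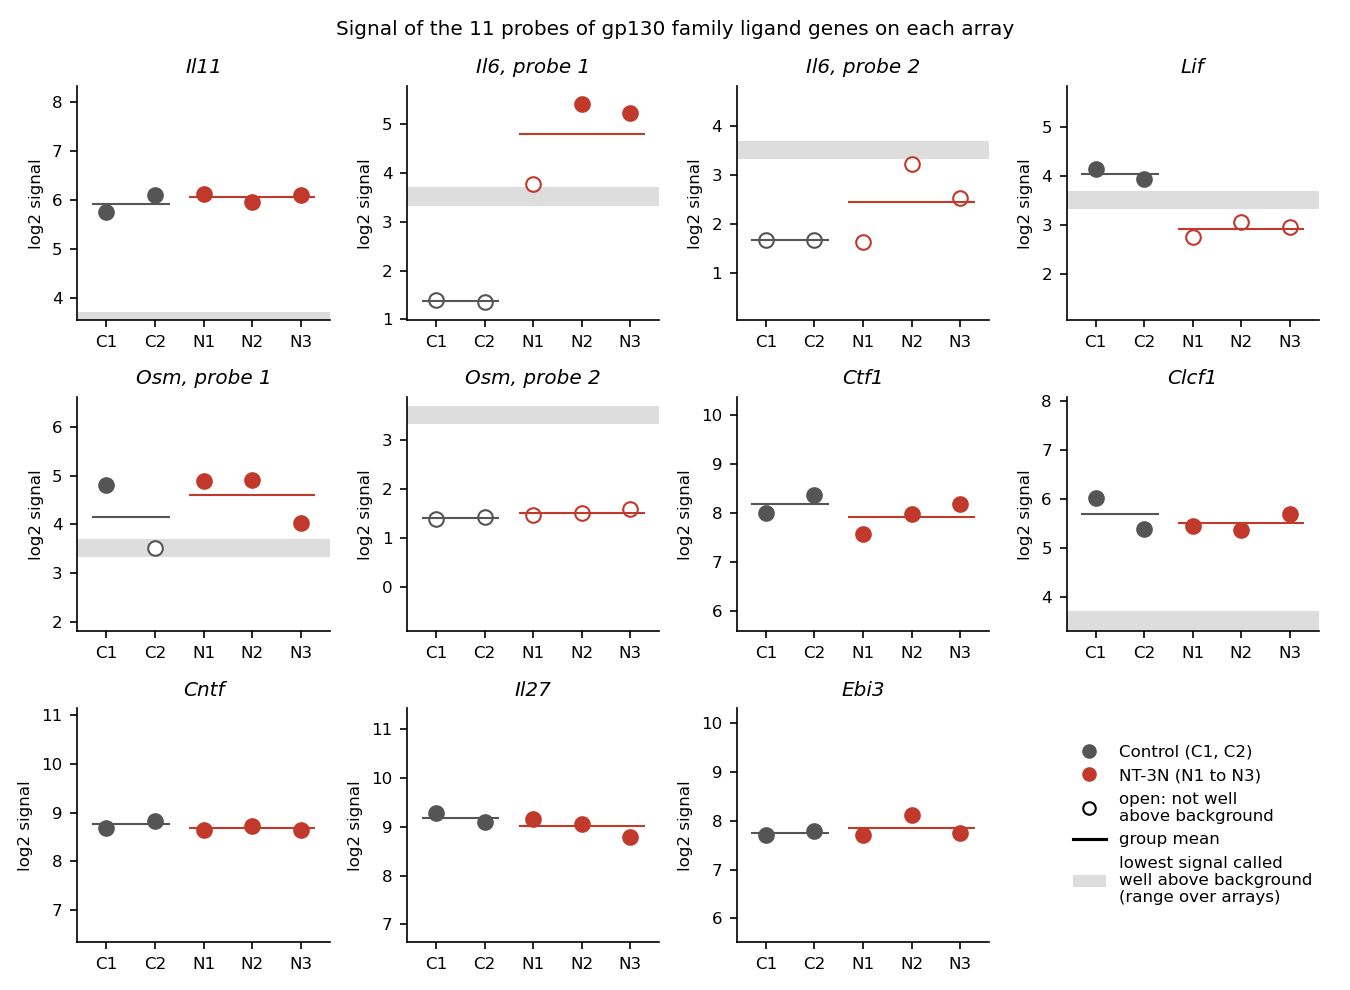
Log2 quantile-normalized signal of each of the 11 ligand probes (vertical axes, every panel spanning the same number of log2 units) on each array (horizontal axes: C1 and C2, Control replicates; N1 to N3, NT-3N replicates). Filled points were well above background, open points were not, lines are group means and the grey band is the lowest signal flagged well above background, 3.33 to 3.70 over the arrays. Il6 probe 1 lies between 1.35 and 1.40 in Control and between 3.77 and 5.41 in NT-3N, Lif lies above the band in Control and below it in NT-3N, and the 6 genes that are filled on all 5 arrays overlap between the groups.

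Il6, the acute-phase cytokine of the family, was detected only in injected colons. Its brighter probe gave 1.40 and 1.35 in the Control colons, against 3.77, 5.41 and 5.24 in NT-3N replicates 1 to 3. It was well above background on neither Control array and on NT-3N replicates 2 and 3, and the looser flag for positive and significant signal was also met on NT-3N replicate 1. The groups did not overlap, but the Control values and the value of NT-3N replicate 1 were not well above background. The mean was 1.38 ± 0.03 (SD, n = 2) without the agonist and 4.81 ± 0.90 (SD, n = 3) with it. Since the Control value lies in background, the difference is given as a bound, and Il6 was at least 2.72-fold higher after NT-3N. The bound sets the NT-3N mean over all 3 colons against the lowest signal well above background on the Control arrays. In whole tissue, a change in the number of cells that make a transcript and a change in the RNA per cell cannot be told apart.

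The difference for Il6 had an adjusted p of 0.135 over all features in limma, so it did not pass the threshold of 0.05. Array weights gave adjusted p = 0.0329, the local-pooled-error test gave 0.00327 and the fit without NT-3N replicate 1 gave 0.0359, and over 14 alternatives the adjusted p ran from 0.00327 to 0.585. Without NT-3N replicate 1, the lowest of the injected colons, the bound rose to 3.89-fold. Leaving out each of the other 4 arrays in turn gave bounds between 2.21-fold and 2.79-fold. The second Il6 probe was well above background on no array. It gave 1.67 and 1.66 in Control and 1.62, 3.22 and 2.52 in NT-3N, and the looser flag was met on NT-3N replicates 2 and 3. On both probes NT-3N replicate 1 was thus the lowest of the injected colons, and on the second probe it lay at the level of the Control colons.

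Markers of several cell types were also set side by side on these arrays. Of the 5 listed neutrophil markers, S100a8 and S100a9 were well above background on 0 of 2 Control arrays and on 3 of 3 NT-3N arrays, Retnlg on 1 NT-3N array and Cxcr2 on none. S100a8 and S100a9 did not pass the adjusted threshold (limma, adjusted p = 0.222 and 0.0619). Like Il6, both entered the fit only through the NT-3N arrays. The summed signal of the 5 markers was 76998 to 78015 in Control and 64053 to 77463 in NT-3N, nearly all of it from the probe assigned to Csf3r. That probe was far brighter than the others and did not follow them, and its assignment was not checked. Without Csf3r the sum was 14.7 to 17.1 in Control and 110 to 482 in NT-3N. S100a9 was highest in NT-3N replicate 1, at 8.58 against 6.23 and 6.65 in replicates 2 and 3, which is the array where Il6 was lowest.

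The summed signal of 3 further lists did not overlap between the groups. Among all single features, 28.4% did not overlap either. Smooth muscle markers, all 5 of which had lower means after NT-3N, summed to 286322 to 302492 in Control and 209468 to 271406 in NT-3N. Dendritic cell markers summed to 929 to 1463 in Control and 1470 to 1777 in NT-3N, with 4 means higher after NT-3N and 1 lower. The sum of 929 was that of Control replicate 2, and Control replicate 1, at 1463, lay just below the lowest NT-3N sum. Enteric glia markers summed to 1109 to 1116 in Control and 1257 to 1419 in NT-3N, with 2 of the 4 tested higher and 2 lower. Of them Gfap, named after its values were seen, was the only marker of any list past the adjusted threshold (limma, adjusted p = 0.0120). The fibroblast and the monocyte and macrophage sums overlapped between the groups, as did those of the T cell, B cell and follicle, endothelial and colonic epithelium markers. The fibroblast sum was 49992 to 52905 in Control and 47040 in NT-3N replicate 1, against 66527 and 61750 in replicates 2 and 3. The monocyte and macrophage sum was 10643 to 11185 in Control and 9671 in NT-3N replicate 1, against 13359 and 12688 in replicates 2 and 3. The part of these cells in the Il6 values was not tested.

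Il11 itself, the ligand whose receptor was engaged, gave overlapping values in the groups. Its probe was well above background on all 5 arrays, with 5.75 and 6.10 in Control and 6.12, 5.95 and 6.11 in NT-3N. The NT-3N colons lay close to each other and around the higher Control colon. The log2 difference was 0.14 with an SE of 0.19, and the 95% interval of the fold ran from 0.804 to 1.51 (limma, adjusted p = 0.839). A 2-fold change in either direction lay outside this interval. Without Control replicate 1, the lower of the Control colons, the log2 difference was -0.035. Among 16733 genes with a symbol and signal well above background on all 5 arrays, the 3 whose centred values lay closest to those of Il11 were Trp53, Ulk2 and Kntc1, with mean absolute log2 differences of 0.0145, 0.0188 and 0.0200 over the 5 arrays. As 978 genes lay within 0.1 of Il11, this likeness was not particular to these 3 genes.

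Lif, which maintains stem cells in culture and acts on many tissues, differed in the other direction from Il6. It gave 4.14 and 3.95 in Control and 2.75, 3.07 and 2.96 in NT-3N. Both Control colons were well above background and none of the 3 NT-3N colons was, and the groups did not overlap. The looser flag for positive and significant signal was met on both Control arrays and on all 3 NT-3N arrays. With means of 4.05 ± 0.14 (SD, n = 2) and 2.92 ± 0.16 (SD, n = 3), Lif was at least 1.28-fold lower after NT-3N (limma, adjusted p = 0.408). The adjusted p ran from 0.175 to 1.0 over 14 alternatives, and the bound from 1.20-fold to 1.37-fold when each array was left out. The raw processed signal of the Lif probe was 17.3 and 15.9 in Control and 6.5, 8.7 and 7.5 in NT-3N, so the whole difference lay in the dimmest range of the array.

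Osm, a product of activated myeloid and T cells, could be measured on 4 of the 5 arrays. Its brighter probe gave 4.81 and 3.51 in Control and 4.88, 4.90 and 4.04 in NT-3N, and only Control replicate 2 was not well above background. The groups overlapped, and the log2 difference of 0.45 had a 95% interval from -0.72 to 1.61 (limma, adjusted p = 0.795), so that a rise of 2-fold lay within the interval. The direction depended on the Control colons: without Control replicate 2 the log2 difference was -0.20, and without Control replicate 1 it was 1.09. The adjusted p ran from 0.681 to 1.0 over 16 alternatives in limma or the local-pooled-error test. The second Osm probe lay between 1.39 and 1.58 on all arrays and was never well above background. Control replicate 2 also had the lowest signal of 5 of the 6 B cell and follicle markers, all well above background on every array. Their sum was 1089 there, 4763 in Control replicate 1 and 4430 to 5339 in NT-3N. The exception was Ms4a1, also named after its values were seen, with 4.95 and 6.53 in Control and 9.13 to 9.54 in NT-3N. Whether lymphoid tissue in the sampled colon took part in the Osm values was not tested.

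The ligands that use the LIF receptor with gp130, other than Lif, had overlapping groups and intervals that included no change. Ctf1, named for its action on heart muscle cells, gave 7.99 and 8.37 in Control and 7.58, 7.98 and 8.18 in NT-3N. Its log2 difference was -0.27, with a fold interval of 0.577 to 1.19 (limma, adjusted p = 0.725). The lower Control colon lay among the NT-3N values and the higher one above them. Clcf1, first known for its action on neurons and B cells, gave 6.02 and 5.39 in Control and 5.45, 5.37 and 5.70 in NT-3N. All 3 NT-3N colons lay below the higher Control colon and around the lower one, the log2 difference was -0.20 and the fold interval 0.570 to 1.33 (adjusted p = 0.827). Without Control replicate 1 the sign turned, with a log2 difference of 0.11. Cntf, known from glia of the nervous system, varied little, with 8.68 and 8.83 in Control and 8.65, 8.73 and 8.65 in NT-3N. The log2 difference was -0.079 and the fold interval 0.786 to 1.14 (adjusted p = 0.846).

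The 2 chains of IL-27, a cytokine of antigen-presenting cells, were well above background in every colon, and neither passed the test. Il27 gave 9.27 and 9.10 in Control and 9.16, 9.06 and 8.79 in NT-3N, a log2 difference of -0.18 with a fold interval of 0.692 to 1.13 (limma, adjusted p = 0.736). Ebi3, which pairs with the Il27 chain in IL-27 and with Il12a in IL-35, gave 7.71 and 7.78 in Control and 7.71, 8.11 and 7.74 in NT-3N. Its log2 difference of 0.11, with a fold interval of 0.823 to 1.41 (adjusted p = 0.855), rested on NT-3N replicate 2. Without that colon it was -0.018.

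**Figure D2:**
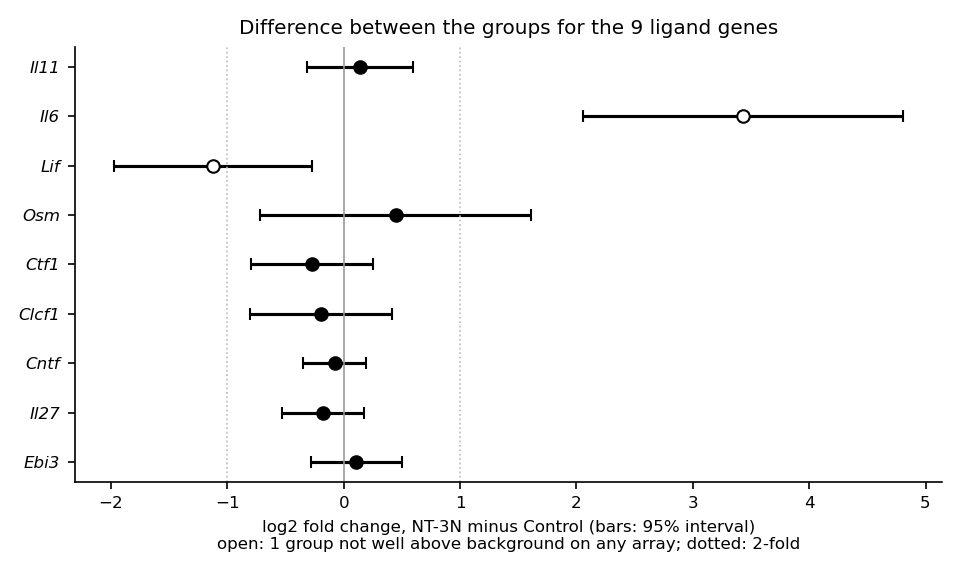
Log2 fold change, NT-3N minus Control, of the 9 ligand genes (horizontal axis; points, limma estimates; bars, 95% intervals; dotted lines, 2-fold). Open points mark Il6 and Lif, for which 1 group was well above background on no array, so that their estimates depend on background signal and the text gives their difference as a bound. The other genes have intervals that cross 0, and those of all but Osm lie within 2-fold in both directions.

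Set beside all features, 0 of the 9 ligand genes passed an adjusted p of 0.05 in limma, against 0.143% of the 32917 features, of which 0.125% were higher and 0.0182% lower after NT-3N. At an unadjusted p under 0.05 there were 2, Il6 and Lif, against 9.62% of features. Asking in addition for a 2-fold difference left the same 2, Il6 against 0.793% of features that were higher and Lif against 0.51% that were lower, or 1.3% in all. Both entered the fit only through the group in which they were well above background, so that a difference was built into their entry, and the count is no evidence about the family. The pattern of Il6, well above background on no Control array and on at least 2 NT-3N arrays, was shared by 0.444% of features. That of Lif, well above background on both Control arrays and on no NT-3N array, was shared by 0.899%. The groups did not overlap for these 2 ligand genes, as for 28.4% of all features, 13.5% with NT-3N higher and 14.8% with it lower. With 10 splits of 5 arrays, the smallest two-sided p of an exact permutation test is 0.1. Il6 and Lif stood at that limit, and the other ligand genes had p from 0.3 upward.

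For the 6 ligand genes that were well above background on all 5 arrays, Il11, Ctf1, Clcf1, Cntf, Il27 and Ebi3, 2 had fitted means above Control and 4 below. Among them 0 had an unadjusted p under 0.05, against 9.85% of the features so detected. Their SD within a group was between 0.042 and 0.44, the groups overlapped in all 6, and every 95% interval lay between 0.570-fold and 1.51-fold. These intervals lie within 2-fold in both directions, which does not show that the groups were equal.

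**Figure D3:**
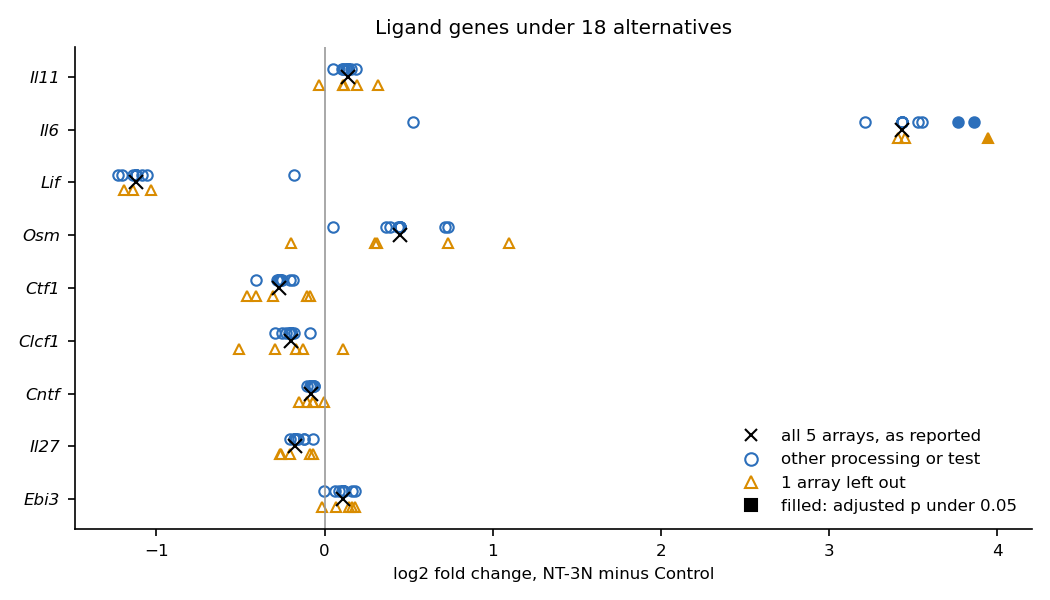
Log2 fold change, NT-3N minus Control, of each ligand gene with all 5 arrays (crosses), under other processing or tests (circles) and with 1 array left out (triangles); filled symbols had an adjusted p under 0.05. Il6 is the only ligand gene with filled symbols, at 3 alternatives, and Il11, Osm, Clcf1 and Ebi3 have values on both sides of 0.

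Among the receptor chains, 7 of 8 listed were tested, 1 rose and 0 fell at an adjusted p of 0.05, against 0.125% of all features higher and 0.0182% lower, and the median log2 difference was 0.18 against -0.019 over all features. Osmr, the chain that pairs with gp130 for oncostatin M, rose by a log2 difference of 2.09 (limma, adjusted p = 0.00574), with 8.92 and 8.85 in Control and 10.80, 11.08 and 11.05 in NT-3N, and its second probe differed by 1.81. Among the chains that missed the threshold, the log2 difference was 0.80 for Il6st (adjusted p = 0.172), -0.35 for Il6ra (adjusted p = 0.350), -0.20 for Il11ra1 (adjusted p = 0.591) and 0.22 for Lifr (adjusted p = 0.682). Probes of a gene disagreed in sign for Il6ra, whose dimmer probe differed by 0.22, again without overlap between the groups, and for Lifr, of whose dimmer probes 1 differed by 0.40 and 1 by -0.12. Cntfr and Il27ra lay at 0.15 and 0.18, and Il31ra was not well above background on any array. Without NT-3N replicate 2, or without replicate 3, 0 chains passed the adjusted threshold, and without NT-3N replicate 1 it was passed by 2. Over all features the calls then fell from 47 to 1 and 0, or rose to 84.

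Of the 12 genes of signal transduction and feedback, all were tested, 2 rose and 0 fell, against 0.125% and 0.0182% of all features, and the median log2 difference was -0.0063. Socs3, the feedback inhibitor, rose by a log2 difference of 2.71 (limma, adjusted p = 0.00875) and the transcription factor Stat3 by 0.74 (adjusted p = 0.0434). The other named genes did not pass: the log2 differences were 0.21 for Jak1, -0.23 for Pias3, -0.097 for Jak2 and -0.037 for Ptpn11, and those of the other 6 lay between -0.050 and 0.0086. The dimmer Jak2 probe differed by 0.13. The dimmer Stat5a probe, named after its values were seen, differed by 0.37 without overlap between the groups, against -0.044 on the fitted probe. With every probe tested in limma it had an adjusted p of 0.383. Without Control replicate 1 or without Control replicate 2 the list had 1 gene past the threshold, and without NT-3N replicate 2 or replicate 3 it had 0.

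Of 5 partner chains and further ligands, 3 were tested and 0 passed the adjusted threshold in limma, against 0.143% of all features, and 0 had an unadjusted p under 0.05, against 9.62%. Their median log2 difference was 0.038. Il12a differed by 0.55, Il12b by -0.021 and Ctf2 by 0.038. Il12a, like Osm, was not well above background in Control replicate 2, where it gave 3.50 against 4.76 in Control replicate 1 and 4.16 to 5.14 in NT-3N. Il23a and Il31 were not well above background on any array.

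Of 8 cytokines known to induce gp130 ligands, 6 were tested and 0 passed the adjusted threshold in limma, against 0.143% of all features, with 2 at an unadjusted p under 0.05, against 9.62%, and a median log2 difference of -0.052. Il1b, a strong inducer of Il6, gave 7.30 and 7.65 in Control and 7.94, 8.20 and 7.76 in NT-3N. The groups did not overlap, as for 28.4% of all features, with a log2 difference of 0.49 and an adjusted p of 0.479. On the dimmer Il1b probe, also well above background on every array, the groups overlapped. It gave 4.19 and 4.90 in Control and 4.42, 5.75 and 5.34 in NT-3N, a log2 difference of 0.62. Tgfb3 differed by -0.43 (adjusted p = 0.501), Il22 by -0.16 and Tgfb1 by -0.080, Tnf and Tgfb2 lay between -0.023 and 0.023, and Il1a and Il17a were not well above background on any array.

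**Figure D4:**
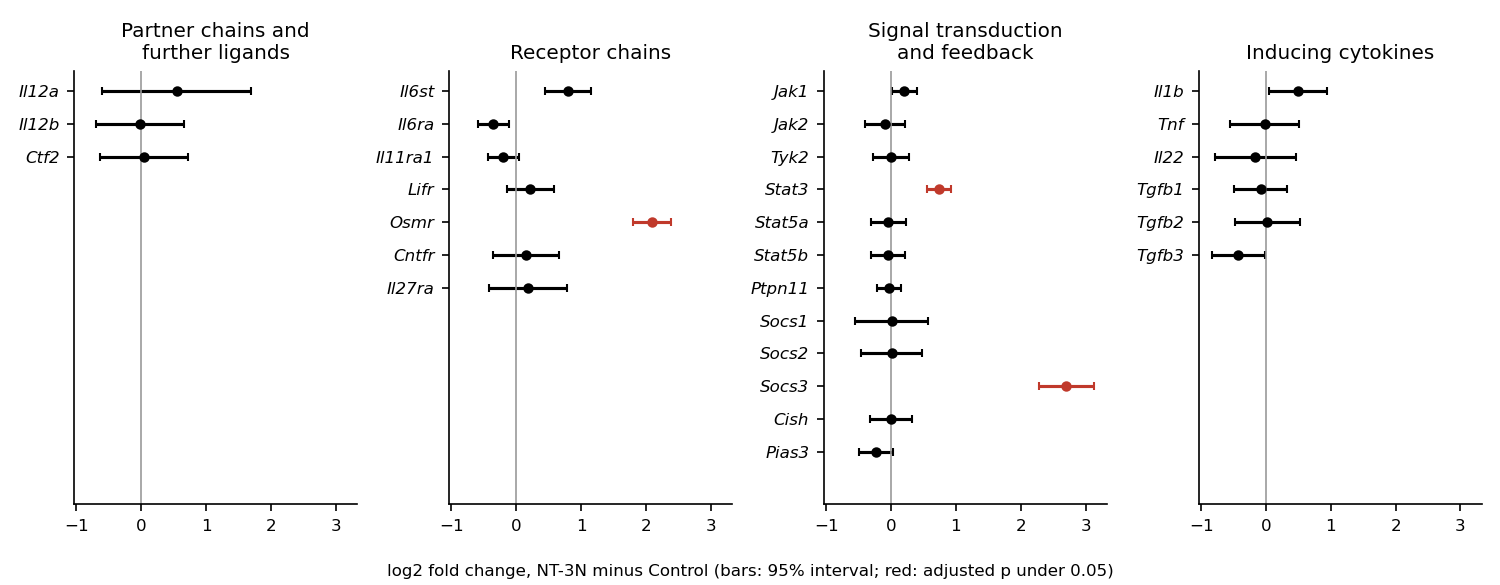
Log2 fold change, NT-3N minus Control (horizontal axes; points, limma estimates; bars, 95% intervals), of the tested genes of 4 lists: partner chains and further ligands, receptor chains, signal transduction and feedback, and inducing cytokines. Red marks an adjusted p under 0.05, which Osmr, Stat3 and Socs3 reached.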

How the data were processed

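The authors extracted spot values with Agilent Feature Extraction 11.0.1.1. Per spot, the scanner files they deposited hold a background-subtracted, detrended intensity per spot, not scaled between arrays. They also deposited log2 values of 37380 probes, which correlated with the quantile-normalized scanner intensity at 0.99998 or more per array and were used as an alternative only. Control and outlier spots were left out (69 to 184 of 59305 noncontrol spots per array), intensities were log2-transformed, spots of a probe averaged and arrays quantile-normalized. Accessions named 32994 of 56605 probes through RefSeq (GRCm38.p6). Probes well above background on at least 2 of 5 arrays, with values on both Control and at least 2 NT-3N arrays, were kept. Of several probes of a gene the brightest was used. NT-3N was set against Control in limma 3.58.1 under R 4.3.3 (lmFit, eBayes with trend, two-sided, Benjamini-Hochberg over 32917 features). A local-pooled-error test, which the study itself used, was an alternative. A bound sets the brighter group's mean against, per array of the other group, whichever is higher of its own signal and the lowest signal flagged well above background.

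The 5 arrays shared 1 slide and 1 scan time. The files and labels name no other batch. The number of arrays limits the precision. The limma p-values rest on the spread between these 5 mice, with that of each gene moderated toward a trend over all features. Ligands, lists and alternatives were chosen with earlier results of these data known. All ligand genes were named; of each other list, genes past the adjusted threshold and up to 4 with the next smallest p. Of the lists as first drawn up, 2 genes are neither counted nor reported here. Same-numbered arrays of the groups had correlations of 0.128 and 0.0357 between their deviations from the group means. The deviations of the 2 Control arrays mirror each other, so these values cannot exclude a pairing. The main fit used none.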

Additional observations from a re-analysis of the deposited data

How the results depend on the processing

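Under 18 alternatives the 9 ligand genes gave 152 log2 differences, of which 144 kept their sign and their side of the adjusted threshold, 3 gained a call (all Il6), 0 lost one and 5 changed sign. Those were Il11 at -0.035 and Clcf1 at 0.11 without Control replicate 1, Osm at -0.20 without Control replicate 2, and Ebi3 at -0.018 without NT-3N replicate 2 and at -0.0039 in the local-pooled-error test; the cause was not tested. In 10 combinations a gene gave no value, because it no longer passed the filter or was not in the deposited log2 values: Il6 and Lif with the deposited values and with the filter on all 5 arrays, Osm with both of these, Il6 without NT-3N replicate 2 or 3, and Lif without either Control array. Ligand genes above Control at an adjusted p under 0.05 went from 0 to 1 with array weights, with the local-pooled-error test and, among fits with 1 array left out (range 0 to 1), without NT-3N replicate 1. Ligand genes past an unadjusted p under 0.05 with 2-fold went from 1 to 0 in each direction with normexp on the median spot signal, with the deposited values and with the filter on all 5 arrays. The one below Control also went to 0 with the replicate block and the local-pooled-error test. With 1 array left out these counts ran from 0 to 1 in each direction. Genes past the adjusted threshold and above Control ran from 0 to 2 of the receptor chains and from 0 to 2 of the signalling genes when 1 array was left out. The log2 differences with 1 array left out ran from -0.035 to 0.32 for Il11, from -0.20 to 1.09 for Osm, from -0.51 to 0.11 for Clcf1, from -0.018 to 0.18 for Ebi3, from -0.46 to -0.084 for Ctf1, from -0.27 to -0.070 for Il27 and from -0.15 to -0.0055 for Cntf. The fit that leaves 1 Control array assumes that it varies as the NT-3N group does.

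With normexp the log2 difference was 0.52 for Il6 (limma, adjusted p = 0.366) and -0.18 for Lif (adjusted p = 0.675). Over 14 alternatives for each gene the log2 differences ran from 0.52 to 3.95 for Il6 and from -1.23 to -0.18 for Lif. The bounds given for these 2 genes therefore hold for the quantile-normalized processed signal only. With the replicate block the log2 difference of Il11 was 0.12, Il6 had an adjusted p of 0.585 in limma, and 0 of all features were called, against 47. Over all features, 348 were called by the local-pooled-error test, 167 with array weights, 118 without Control replicate 2, 84 without NT-3N replicate 1, 70 with every probe tested, 69 with robust eBayes, 31 without Control replicate 1, 2 without the filter, 2 without the trend, 1 without NT-3N replicate 2 and 0 without NT-3N replicate 3. The neutrophil sum without Csf3r was added after seeing the data. Signal near background limits what Il6, Lif and Osm can show.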
